A study of Rattus norvegicus with 16 samples.

Results

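The liver removes steroid hormones from the blood and makes bile acids, and the 8 genes described here encode enzymes that add or remove hydrogen or oxygen on the steroid skeleton in that tissue. They are Cyp17a1, Akr1c13, Akr1c1, Akr1c14, Akr1d1, Srd5a1, Hsd17b2 and Hsd3b5 of the rat. They were taken as the genes to which the RefSeq accessions of the non-control array probes map, which gave 10 probes of 30367 on the array, and 8 of the 26913 genes or identifiers those probes represent. Srd5a1 and Hsd3b5 had a pair of probes each and the other 6 genes had 1 probe.

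Hormone inactivation in hepatocytes runs in steps. The reductases Akr1d1 and Srd5a1 saturate the A ring of testosterone, progesterone and glucocorticoids in the beta or the alpha configuration, the hydroxysteroid dehydrogenases of the aldo-keto reductase (AKR1C) and HSD families interconvert keto and hydroxyl groups, and sulfate or glucuronic acid is then added for excretion. Cyp17a1 stands at the other end, as the P450 that hydroxylates pregnenolone and progesterone and cleaves their side chain to give androgens, and it is best known from the testis and adrenal gland.

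RNA came from the livers of male Sprague-Dawley pups at postnatal day 21, in 4 groups. Each group had 4 arrays, and an array held pooled RNA of 2 pups. MM pups were born to dams dosed at 1.0 mg/kg/day with methylmercury, polychlorinated biphenyls and organochlorine pesticides in corn oil through gestation and lactation, and were raised by other dams on this mixture. CC pups were born to dams given corn oil alone and were raised by other such dams. M pups had mixture-treated mothers, C pups had corn oil mothers, and both stayed with them. Adult rats and the remaining exposures of the study were not used here. Which litters entered a pool is not given, so p-values measure the spread between pools.

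Liver RNA carried the dye Cy5 and a universal reference RNA from 14 rat cell lines carried Cy3 on every array. The level of a gene is given below as log2 of Cy5 over Cy3 after normalization, and differences of that ratio between groups as log2 differences with the standard error (SE) and the adjusted p of limma, which counts as passed under 0.05. All M and MM arrays were on one slide and all C and CC arrays on the other, so the mixture and the slide cannot be told apart in either mixture comparison. The reference, which holds no pup RNA, passed for 65.9% of genes between M and C arrays and for 66.4% between MM and CC arrays. For that reason each tested member is also given in Cy5 alone and in Cy3 alone. The median Cy5 signal of an array was 87 to 102 intensity units over a median background of 67 to 73, and 46.2% to 53.9% of spots exceeded background clearly in Cy5 by the scanner software's test, called well above background below.

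All 10 hepatocyte markers, among them Alb, Ttr and Apoa1, were well above background on all 16 arrays. Summed Cy5 levels of markers are given after quantile normalization between arrays, which leaves sums of very bright markers little room to differ. The hepatocyte sum was 1026570 to 1078830 in MM, 1011860 to 1066640 in CC, 1006130 to 1070730 in M and 1038490 to 1073370 in C. In the ratio the median difference of these 10 markers was -0.22 between M and C, 0.20 between MM and CC and -0.32 between CC and C. None of them passed in these comparisons. Of 6 adrenal cortex markers 5 were not well above background on any array (Cyp11b1, Cyp11b2, Cyp11a1, Mc2r and Star), and of 5 Leydig cell markers 4 were not (Lhcgr, Cyp11a1, Hsd17b3 and Star). The remaining marker of each list, Cyp21a1 and Insl3, was well above background on all 16 arrays. The summed Cy5 level of the adrenal list was 452 to 489 in MM and 429 to 463 in CC, against 451 to 499 in M and 441 to 463 in C, and that of the Leydig list was 388 to 406 in MM and 369 to 401 in CC, against 376 to 387 in M and 387 to 413 in C. The part of such cells in the Cyp17a1 signal was not tested. The CC 1 and CC 2 arrays stood apart in skeletal muscle and exocrine pancreas markers, and MM 1 was also high in the pancreas markers. The summed Cy5 level of 8 skeletal muscle markers was 678 to 698 in MM and 739 to 10958 in CC, against 680 to 782 in M and 722 to 733 in C, with Myh4 not well above background on any array. Both muscle markers that could be tested passed in the ratio, lower in MM than in CC (log2 -2.13 and -2.96), and neither passed in Cy5 alone. The summed Cy5 level of 7 exocrine pancreas markers was 513 to 3316 in MM and 492 to 12316 in CC, against 510 to 1676 in M and 510 to 546 in C. The highest MM value was that of MM 1, beside 4412 on CC 1 and 12316 on CC 2. The sum of 7 Kupffer cell markers was 5616 to 7423 in MM and 5725 to 8157 in CC, against 5431 to 7502 in M and 6957 to 7878 in C. Of these 7, 1 passed, Marco, lower in MM than in CC (log2 -0.93, limma adjusted p = 0.0292). In Cy5 alone Marco did not pass (-0.57, limma adjusted p = 0.153). The median difference of the 7 was -0.26 between MM and CC and -0.09 between M and C. In both mixture comparisons the cholangiocyte marker Epcam (0.42 and 0.64) and the stellate marker Reln (0.38 and 0.54) passed in the ratio. Neither passed in Cy5 alone, and no other tested marker of their lists passed. The median difference of the 4 tested cholangiocyte markers was 0.01 between M and C and -0.13 between MM and CC. That of the 6 stellate markers was 0.02 and 0.02. The part of these cells and tissues in the results below was not tested, and values without CC 1 and CC 2 are given where they change a call. In bulk tissue, fewer cells of a type and less RNA per cell cannot be told apart.

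Of the 7 members that were bright enough to test, 3 passed between M and C: Cyp17a1 and Akr1c13 fell and Akr1c14 rose. The share of all 12072 genes tested that passed in this comparison was 20.2%, with 8.3% higher and 11.9% lower. Between MM and CC, 2 of 7 members came under the threshold, and 1 of them, Akr1c14, is read as a rise. The other was Akr1c1, which met the filter on dim probes only through the MM arrays and missed the threshold with no filter. In that comparison too 20.2% of all genes passed, 7.89% higher and 12.3% lower. The median log2 difference of the 7 members was 0.04 between M and C, beside -0.05 for all genes. Between MM and CC it was 0.07, beside -0.06 for all genes. These medians include Akr1c1, and the 0.04 is its own value. Nothing particular to these genes can be read from such counts on so short a list. The 4 arrays of one group lay wholly apart from the 4 of the other for 4 members between M and C, where 25.1% of all genes did so, and for 1 member between MM and CC, where 22% did.

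**Figure D1:**
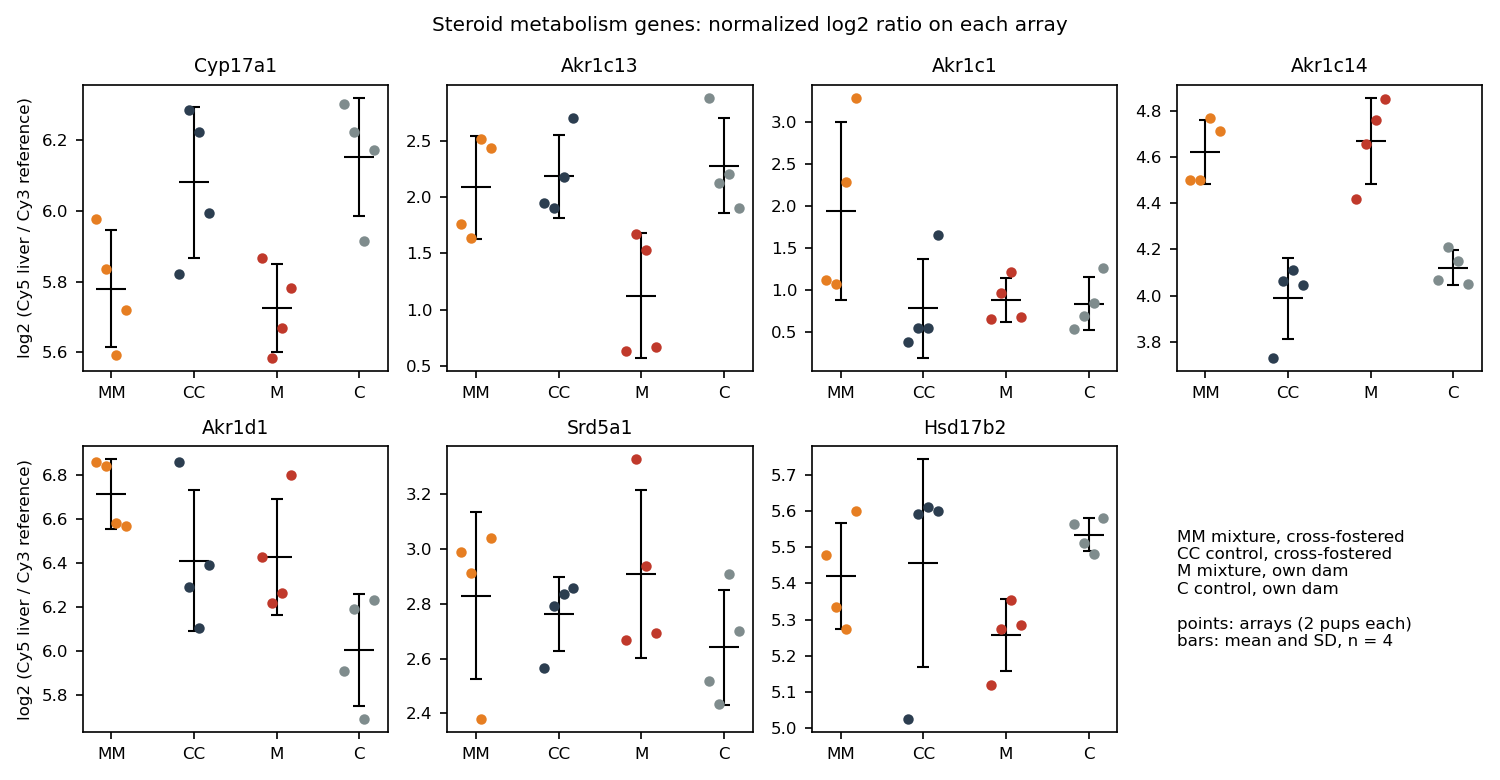
Normalized log2 ratio of Cy5 (liver) over Cy3 (reference) for the 7 tested members in the MM, CC, M and C groups; points are arrays of 2 pooled pups, and bars are the mean and SD of 4 arrays. Akr1c14 lies higher on every MM and M array than on any CC or C array, Cyp17a1 lies lower on every M array than on any C array, and Akr1c1 is high on MM 3 and MM 4.

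Akr1c14 (RefSeq NM_138547, also listed as Akr1c9) is the rat liver hydroxysteroid dehydrogenase that reduces the keto group at the A ring of dihydrotestosterone and other dihydrosteroids. It gave log2 ratios of 4.42, 4.65, 4.76 and 4.85 on the M arrays, against 4.07, 4.21, 4.15 and 4.05 on the C arrays. On the MM arrays they were 4.50, 4.50, 4.77 and 4.71, against 3.73, 4.06, 4.11 and 4.05 on the CC arrays. No mixture array overlapped a control array in either pair. The rise was 1.47-fold in M over C (log2 0.55 ± 0.10 SE, limma adjusted p = 0.00155) and 1.55-fold in MM over CC (log2 0.63 ± 0.10, limma adjusted p = 0.000627). In Cy5 alone the log2 differences were 0.51 (limma adjusted p = 0.0268) and 0.65 (limma adjusted p = 0.0051), in a channel where 2.25% of genes passed between M and C and 2.57% between MM and CC. The reference signal of the probe differed by 0.03 and 0.02. Its 10 spots per array made it the best replicated member. The rise in M over C was 0.40 among arrays of row 1 of the slides (limma adjusted p = 0.115) and 0.71 among those of row 2 (limma adjusted p = 0.00824).

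Cyp17a1 (NM_012753) was among the brighter probes. Its Cy5 intensity was 4462.5 to 5699 on the M arrays, against 6988.5 to 14882.5 on the C arrays, and 3494 to 5712.75 on the MM arrays, against 7932.5 to 10694.5 on the CC arrays. Neither pair overlapped in Cy5. The log2 ratios were 5.87, 5.58, 5.67 and 5.78 in M, against 6.30, 6.22, 5.91 and 6.17 in C, and the lowest C array lay just above the highest M array. In MM they were 5.98, 5.83, 5.59 and 5.72, against 5.82, 6.29, 6.22 and 5.99 in CC, with CC 1 inside the range of MM. The fall in M was 1.35-fold (log2 -0.43 ± 0.12 SE, limma adjusted p = 0.0155), and it missed the threshold without M 6 or without C 9 (limma adjusted p = 0.0511 each). Between MM and CC the ratio differed by -0.30 ± 0.12 (limma adjusted p = 0.0782), and by -0.39 without CC 1, which passed (limma adjusted p = 0.0277), as it did without MM 1 at -0.37 (limma adjusted p = 0.0474).

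The fall of Cyp17a1 was larger in Cy5 alone, at -1.005 in M over C (limma adjusted p = 0.00184) and -0.75 in MM over CC (limma adjusted p = 0.0119). Its reference signal was lower on the same arrays, by -0.45 and -0.37. Over the 16 arrays the Cy5 and Cy3 signals of this probe had a Pearson correlation of 0.86, and the correlation was 0.69 among the 8 control arrays and 0.41 among the 8 mixture arrays, which share a slide. For the 6 other tested members the correlation over the 16 arrays, by the probe that stands for the gene, was -0.46 to 0.39. Among the control and the mixture arrays it was 0.52 and 0.56 for Srd5a1, and 0.66 and 0.01 for Hsd17b2. For the remaining tested members it was at most 0.09 on either slide. The ratio differs from Cy5 alone by what the reference did, and the part of the reference in the size of the fall was not tested. Within array rows the ratio differed by -0.54 in row 1 (limma adjusted p = 0.0853) and by -0.32 in row 2 (limma adjusted p = 0.166) between M and C.

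**Figure D2:**
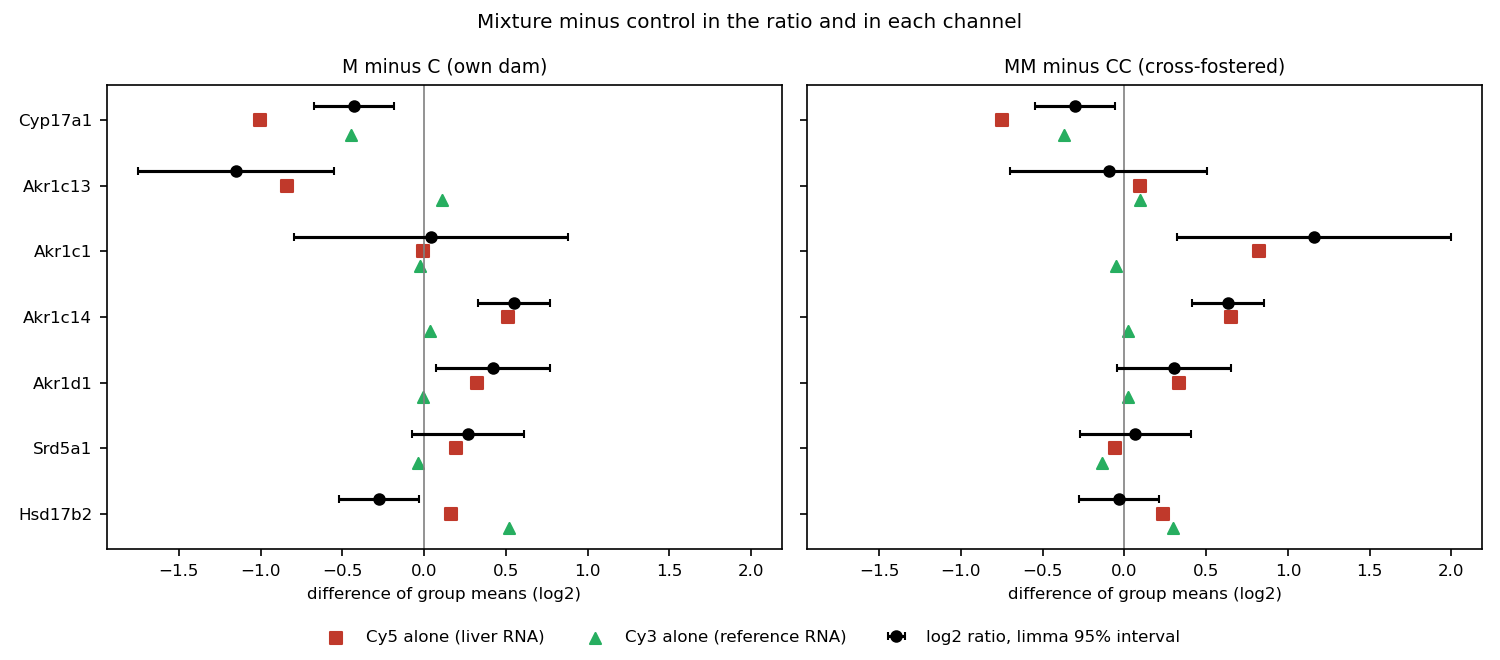
Differences between mixture and control group means (log2) for the 7 tested members, M minus C on the left and MM minus CC on the right; circles are the Cy5 over Cy3 ratio with the limma 95% interval, squares Cy5 alone and triangles Cy3 alone, n = 4 arrays per group. Akr1c14 has ratio differences of 0.55 and 0.63 beside Cy5 differences of 0.51 and 0.65, with Cy3 at 0.03 and 0.02, Cyp17a1 is lower in all 3 measures, and Hsd17b2 lies below 0 in the ratio and above 0 in both channels.

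Akr1c13 (NM_001170342, also listed as Akr1c12) showed the widest difference of the members between M and C in the ratio, while in Cy5 alone that of Cyp17a1 was wider. The ratios were 0.63, 1.67, 1.53 and 0.67 on the M arrays, against 2.88, 2.12, 2.20 and 1.90 on the C arrays. M 5 and M 8 were the low arrays, and no M array reached the lowest C array. Akr1c13 was 2.22-fold lower in M (log2 -1.15 ± 0.28 SE, limma adjusted p = 0.00896). Its probe was dim, with a Cy5 intensity of 117.25 to 221.5 on the M arrays, against 211.25 to 404.5 on the C arrays. On M 5 it was 117.25 over a local background of 68, and on M 8 131.75 over 72.5. Its Cy5 was well above background on all 16 arrays. Across the alternative settings the difference between M and C ranged from -1.49 to -0.84. In Cy5 alone the difference was -0.84 and missed the threshold (limma adjusted p = 0.0666), and the ratio differed by -1.35 within row 1 (limma adjusted p = 0.0514) and -0.96 within row 2 (limma adjusted p = 0.0831). On the MM arrays the ratios were 1.76, 1.63, 2.51 and 2.44, against 1.94, 1.90, 2.18 and 2.70 on the CC arrays, and the groups overlapped. The difference there was -0.10 ± 0.28 (limma adjusted p = 0.848), with an interval of -0.70 to 0.50, and Cy5 alone gave 0.09 (limma adjusted p = 0.905). The reference signal of the probe differed by 0.11 between M and C and by 0.10 between MM and CC. The difference between the mixture comparisons was 1.06 ± 0.40 (unadjusted p = 0.0178, limma adjusted p = 0.999), so the effects in M and MM were not shown to differ.

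Akr1c1 (NM_001033697) encodes another aldo-keto reductase, and it was the dimmest tested member. On 4 MM, 1 CC, 2 M and 2 C arrays its Cy5 was well above background, and its Cy3 on none, so the denominator of its ratio is background. The Cy5 intensity was 111.5, 114, 179 and 297.5 on the MM arrays, against 87.5, 93.5, 92 and 145 on the CC arrays, over local backgrounds of 67.5 to 73. The matching log2 ratios were 1.13, 1.07, 2.29 and 3.29 in MM, against 0.38, 0.55, 0.55 and 1.66 in CC. MM 4 and MM 3 were highest and CC 4 overlapped MM. Akr1c1 met the filter on dim probes through the MM arrays alone, the group where it was highest, so its difference is given as a description and no fold is given. The log2 difference between MM and CC was 1.16 ± 0.40 SE (limma adjusted p = 0.0488 with the filter and 0.0756 with none). It also missed the threshold in Cy5 alone (0.82, limma adjusted p = 0.155), without MM 4 (0.71, limma adjusted p = 0.146), without MM 3, CC 1, CC 2 or CC 3, and without CC 1 and CC 2 together (0.84, limma adjusted p = 0.297), in all in 9 of 21 alternative settings. In M the ratios were 0.66, 0.97, 1.22 and 0.68, against 0.55, 0.70, 0.85 and 1.27 in C, a difference of 0.04 ± 0.40 (limma adjusted p = 0.957), with -0.00933 in Cy5 alone. Cy3 alone gave -0.03 between M and C and -0.05 between MM and CC.

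Akr1c1, Akr1c13 and Akr1c14 belong to 1 cluster of aldo-keto reductase genes. In the RefSeq annotation of the GRCr8 assembly it runs along chromosome 17 in the order Akr1e2, Akr1c2, Akr1c1, Akr1c12l1, Akr1c13, Akr1c19, Akr1c12, Akr1c3, Akr1c14 and Akr1c15, and all 10 genes had a probe and 7 were bright enough to test. Akr1c12 is a separate gene in this order, although its name is also a synonym of Akr1c13. Genes of the cluster passed in opposite directions. Akr1c19, next to Akr1c13, fell in M over C (log2 -0.59 ± 0.11, limma adjusted p = 0.00096) and in MM over CC (-0.33 ± 0.11, limma adjusted p = 0.0372), and in Cy5 alone it passed between M and C only, at -0.35 (limma adjusted p = 0.0322), against -0.15 between MM and CC (limma adjusted p = 0.432). Akr1e2, Akr1c12 and Akr1c15 gave 0.08, -0.14 and -0.07 between M and C and 0.21, 0.26 and -0.39 between MM and CC, with no call. These genes are close copies of each other, so a probe may read RNA of more than one of them, and the split of signal between them was not tested.

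**Figure D3:**
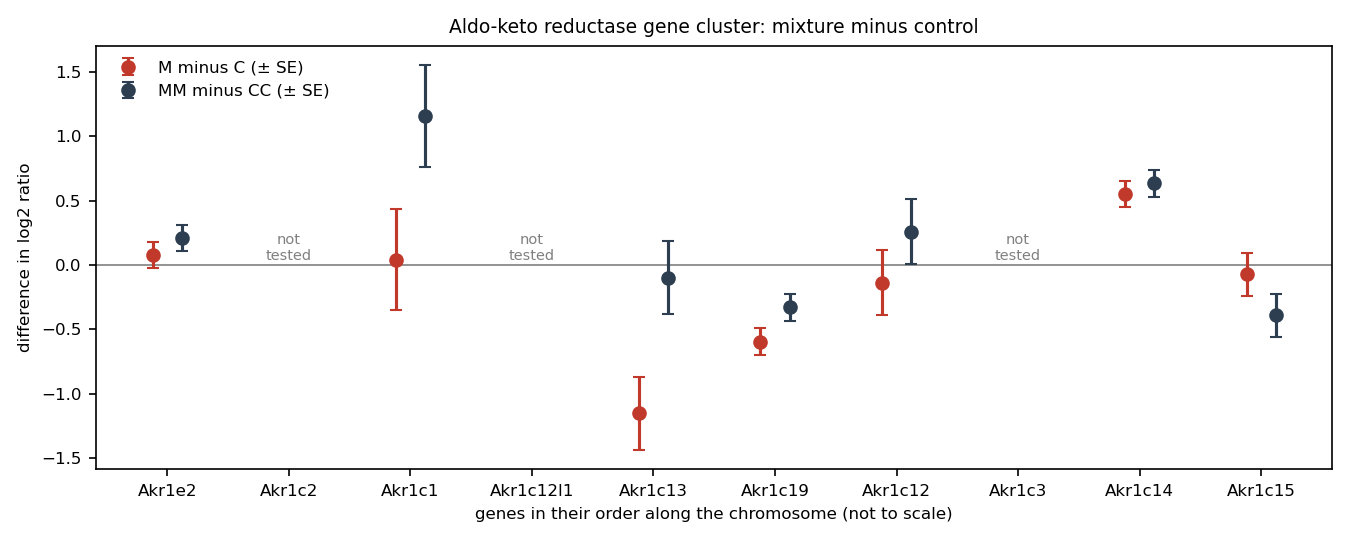
Difference in log2 ratio with its SE (n = 4 arrays per group) for the 7 tested of the 10 genes of the aldo-keto reductase cluster in their order along the chromosome, M minus C and MM minus CC. Akr1c14 lies above 0 and Akr1c19 below 0 in both comparisons, Akr1c13 is at -1.15 between M and C and -0.10 between MM and CC, and the difference between these effects did not pass. Akr1c1, at 0.04 and 1.16, is shown as a description, and Akr1c2, Akr1c12l1 and Akr1c3 were not tested and have no point.

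Promoter sequences from RefSeq (build GRCr8), of 250 bases before and 50 after the start, were at hand for 3 of the 8 members. These were Akr1c13, Akr1c14 and Srd5a1, and all 3 are shown. The first pair are genes of 1 cluster that moved in opposite directions in M. Capitals mark GTTAA on either strand, a piece of the site of the liver factor HNF1, which 24.9% of 33469 rat promoters of this length hold. Akr1c13 (chr17:70894386-70894685, plus strand) holds 4 matches, of which the first pair overlaps on opposite strands, and Akr1c14 (chr17:71083135-71083434, minus strand) holds 2, at positions -233 and -46 from the start.
Akr1c13: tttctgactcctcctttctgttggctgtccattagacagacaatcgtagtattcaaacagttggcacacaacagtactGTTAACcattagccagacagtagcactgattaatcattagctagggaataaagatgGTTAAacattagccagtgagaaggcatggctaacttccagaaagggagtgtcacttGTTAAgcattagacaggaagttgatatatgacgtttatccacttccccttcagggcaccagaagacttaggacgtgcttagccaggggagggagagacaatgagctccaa
Akr1c14: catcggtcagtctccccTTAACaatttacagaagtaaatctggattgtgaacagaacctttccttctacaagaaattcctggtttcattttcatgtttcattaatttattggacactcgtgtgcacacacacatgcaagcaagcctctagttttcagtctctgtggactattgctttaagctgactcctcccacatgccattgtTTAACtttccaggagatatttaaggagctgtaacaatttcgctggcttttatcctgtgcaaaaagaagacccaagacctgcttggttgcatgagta
The Srd5a1 sequence (chr1:35514664-35514963, plus strand) is that of a member that did not pass. Its capitals mark GGGCGG, the Sp1 box, on either strand, with 7 matches where 33.1% of promoters hold any.
Srd5a1: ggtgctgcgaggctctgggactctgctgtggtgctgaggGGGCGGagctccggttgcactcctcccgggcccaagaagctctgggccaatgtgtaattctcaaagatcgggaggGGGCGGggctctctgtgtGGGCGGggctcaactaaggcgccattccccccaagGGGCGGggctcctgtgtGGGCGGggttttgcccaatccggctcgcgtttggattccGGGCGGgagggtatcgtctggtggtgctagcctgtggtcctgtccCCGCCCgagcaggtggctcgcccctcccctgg
No match on either strand was found in the 3 sequences for GCGTG, the core of the aryl hydrocarbon receptor site (29.7% of promoters), for the nuclear receptor sites AGGTCA (16.2%) and AGTTCA (14.5%), for TGACNNNGC of Nrf2 (12.1%) or for TATAAA (14.2%). CCAAT, in 37.5% of promoters, occurred once in Akr1c14 and 2 times in Srd5a1.

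The A-ring reductases did not pass in either mixture comparison. Akr1d1 (NM_138884), which reduces steroids and bile acid precursors in the beta configuration, gave ratios of 6.43, 6.22, 6.26 and 6.80 in M, against 5.91, 6.19, 5.69 and 6.23 in C. M 6 lay below the highest C array, and the difference was 0.42 ± 0.17 SE (limma adjusted p = 0.0831). In MM they were 6.86, 6.84, 6.58 and 6.57, against 6.86, 6.29, 6.10 and 6.39 in CC, a difference of 0.30 ± 0.17 (limma adjusted p = 0.215). CC 1 lay above every MM array, and the other 3 CC arrays lay below all of them. Cy5 alone gave 0.32 and 0.33, and Cy3 -0.01 and 0.02, with no call in Cy5. Between CC and C the difference was 0.41, which did not pass (unadjusted p = 0.0256, limma adjusted p = 1).

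Srd5a1 (NM_017070), which turns testosterone into dihydrotestosterone, gave ratios of 2.67, 3.33, 2.94 and 2.70 in M, against 2.52, 2.43, 2.91 and 2.70 in C. The groups overlapped, and the difference was 0.27 ± 0.16 (limma adjusted p = 0.264). In MM the ratios were 2.99, 2.91, 2.38 and 3.04, against 2.56, 2.79, 2.84 and 2.86 in CC, a difference of 0.07 ± 0.16 (limma adjusted p = 0.815). Cy5 alone gave 0.20 and -0.06 (limma adjusted p = 0.645 and 0.92), so the sign between MM and CC depended on the channel. Cy3 gave -0.04 and -0.14, and the second of these passed (limma adjusted p = 0.0162). The other probe for Srd5a1 gave -0.06 between M and C and 0.37 between MM and CC, so the probes differed in sign between M and C. It was dimmer, at 136 to 354 Cy5 units against 497.5 to 1504.5 for the probe that stood for the gene.

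Hsd17b2 (NM_024391), which oxidises estradiol to estrone and testosterone to androstenedione, had a direction that depended on the channel. The ratios were 5.12, 5.28, 5.35 and 5.29 in M, against 5.57, 5.51, 5.48 and 5.58 in C, and did not overlap. The difference in the ratio was -0.28 ± 0.12 SE (limma adjusted p = 0.103), but Cy5 alone gave 0.16 (limma adjusted p = 0.536), and the reference signal was higher on the M arrays by 0.52 (limma adjusted p = 0.00153). With the scanner software's own log ratio the difference was -0.69 (limma adjusted p = 0.00638), and with a normexp offset of 10 it was -0.49 (limma adjusted p = 0.0345). The MM ratios were 5.48, 5.33, 5.27 and 5.60, against 5.02, 5.59, 5.61 and 5.60 in CC, a difference of -0.03 ± 0.12 (limma adjusted p = 0.871), and 0.23 in Cy5 alone. The reference signal was higher on the MM arrays by 0.30 (limma adjusted p = 0.0429). CC 1 was the lowest of the CC arrays.

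Hsd3b5 (NM_012584), which in the mouse encodes a ketosteroid reductase of the male liver, was not well above background on any of the 16 arrays with either probe. Its Cy5 intensity was 60.5 to 79.5 over local backgrounds of 65 to 74.75, and no level or fold is given.

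Cross-fostering moved no member past the threshold. Of 7 members, 0 passed between CC and C, between MM and M and in the interaction, and 0% of all 12072 genes did in each of these limma comparisons. No member passed under any alternative setting either. At an unadjusted p under 0.05 there were 334 genes between CC and C, 277 between MM and M and 360 in the interaction. Among the members these were Akr1d1 between CC and C (0.41 ± 0.17), Akr1c13 between MM and M (0.96 ± 0.28, unadjusted p = 0.00371) and Akr1c13 in the interaction. Akr1c1, tested through MM alone, gave 1.06 ± 0.40 between MM and M (unadjusted p = 0.0162). No member's groups lay apart between CC and C or between MM and M, where 2.22% and 1.28% of all genes did. The median log2 difference of the members, Akr1c1 included, was -0.07 between CC and C, 0.16 between MM and M and 0.13 in the interaction. For all genes it was 0.01, 0.00294 and -0.00772. For Akr1c14, Cyp17a1 and Hsd17b2 the 95% intervals of both cross-fostering differences lay within 0.41 log2 units of 0, while for Akr1c1 and Akr1c13 they reached 1.90 and 1.56 between MM and M.

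Among themselves the members varied mostly apart. Over the 16 arrays, after subtracting the mean of each slide, the highest Pearson correlation between 2 members was 0.72, between Akr1c1 and Akr1c13, and the next was 0.53, between Akr1c14 and Hsd17b2. The lowest was -0.50, between Akr1c14 and Akr1d1. The arrays share slides, rows and a reference, so these values describe this set of arrays. Akr1c1 met the filter on dim probes through the MM arrays alone, and its Cy3 was background. Its correlations, also those with the genes named below, are therefore given as a description only. Whether the probes of Akr1c1 and Akr1c13 read RNA of each other was not tested. By the same measure the named genes most like Akr1c14 included Cygb (0.91) and Lpgat1 (0.89). Those most like Cyp17a1 were Cyp2c6v1 (0.85), Creb3l3 (0.83) and Apoc4 (0.80), and those most like Hsd17b2 were Itih1 (0.93), Serpinf2 (0.90) and Serpina4 (0.90). For Akr1c13 they were Zfp799 (0.88), Pax3 (0.78) and Dmtf1 (0.76), and for Akr1c1 Lrrc24 (0.83), Reep4 (0.80) and Rnf39 (0.79). For Akr1d1 they were Gtf2e1 (0.79), Commd7 (0.79) and Prpsap1 (0.75), and for Srd5a1 Gmppb (0.78), Rnf31 (0.78) and Psmb10 (0.77). All these genes were picked as the highest among the tested genes with an established symbol, so their correlations are high by that choice. Some of the correlations differed between the slides. Lrrc24 was at 0.91 on the mixture slide and 0.33 on the control slide, Psmb10 at 0.91 and 0.17, and Gmppb at 0.93 and 0.50. The other genes named here were at 0.62 or more on both slides. On the control slide Hsd17b2 was at 5.02 on CC 1 and at 5.48 to 5.61 on the other arrays. Akr1c14 was at 3.73 on CC 1, against 4.05 to 4.21 on the other arrays of that slide. Cyp17a1 was also lowest on CC 1, at 5.82 against 5.91 to 6.30, and Akr1d1 was highest there, at 6.86 against 5.69 to 6.39. How far the correlations of these members rest on CC 1 was not tested, among them those of 0.95 to 0.98 for Hsd17b2 on the control slide.

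By the probe that stands for each gene, the members other than Akr1c1 differed by at most 0.25 between array rows on the control slide and by at most 0.36 on the mixture slide. The 3 arrays with the highest Akr1c1 ratio, MM 4, MM 3 and CC 4, were all in row 2, and its Cy5 was not well above background on any row 1 array of the control slide, so no difference between rows is given for it. The part of the row in its values was not tested.

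The other enzymes of the pathway were read from 6 lists of which 59 genes besides the members could be tested. Between M and C 12 rose and 5 fell, and 8 of these also passed in the same direction in Cy5 alone. Between MM and CC 11 rose and 2 fell, 7 of them also in Cy5 alone. Beside these counts, 8.3% of all genes were higher and 11.9% lower between M and C, and 7.89% higher and 12.3% lower between MM and CC, with 2.25% and 2.57% passing in Cy5 alone. The steroid hydroxylases held the largest rises, with 5 of 16 higher and none lower in both comparisons, and all 5 passed in Cy5 alone as well. Cyp2b2, a phenobarbital-type P450, was 6.77-fold higher in M and 4.49-fold higher in MM. Cyp2c7, a retinoic acid hydroxylase, was 5.08-fold and 6.58-fold higher. Cyp1b1, which hydroxylates estradiol, was 2.87-fold and 3.34-fold higher, and Cyp2c11, the male-typical testosterone hydroxylase of the adult rat, 2.13-fold and 1.96-fold. The fifth, Cyp3a23-3a1, named after its values were seen, was 1.85-fold and 1.75-fold higher.

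Of 8 genes for steroidogenesis and electron donors, 3 rose in both comparisons, all of them carriers of electrons to P450 enzymes. Cyb5a, the cytochrome b5 that also aids the lyase step of Cyp17a1, was 1.60-fold higher in M over C (log2 0.68 ± 0.071, limma adjusted p = 1e-05) and 1.495-fold higher in MM over CC, and in Cy5 alone it passed in both. Por, the P450 reductase, was 1.81-fold and 1.96-fold higher in the ratio, and Cyb5r3 1.58-fold and 1.49-fold, but neither passed in Cy5 alone, and their reference signals were lower on the mixture slide by -0.48 and -0.42 for Por and -0.31 and -0.30 for Cyb5r3.

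Of 15 hydroxysteroid dehydrogenases and reductases, 2 rose and 2 fell between M and C, and 2 rose and 1 fell between MM and CC, shares near the 20.2% of all genes that passed in each. Hsd17b8 fell in both (log2 -0.50 and -0.38). H6pd, which supplies NADPH to Hsd11b1, and Hsd3b7, a bile acid synthesis enzyme, rose in M (0.42 each), and Hsd11b2, which inactivates glucocorticoids, fell in M (-0.34). Hsd17b12 and Srd5a3 rose in MM (0.35 and 0.29). None of these 6 passed in Cy5 alone. Of 11 conjugation genes Ugt2b1, a glucuronosyltransferase, rose in both (2.06-fold and 1.88-fold, also passed in Cy5 alone), and the sulfotransferase Sult2a6 fell in M (log2 -0.67) but was at -0.07 in Cy5 alone. Of 5 receptors and carriers Pgrmc1 rose and Pgrmc2 fell in M (0.38 and -0.32), neither with a call in Cy5 alone, and none passed in MM, where Pgrmc1 had the smallest p (0.32, limma adjusted p = 0.0727). Of 4 tested AKR1C relatives Akr1c19 fell in both, as given above.

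**Figure D4:**
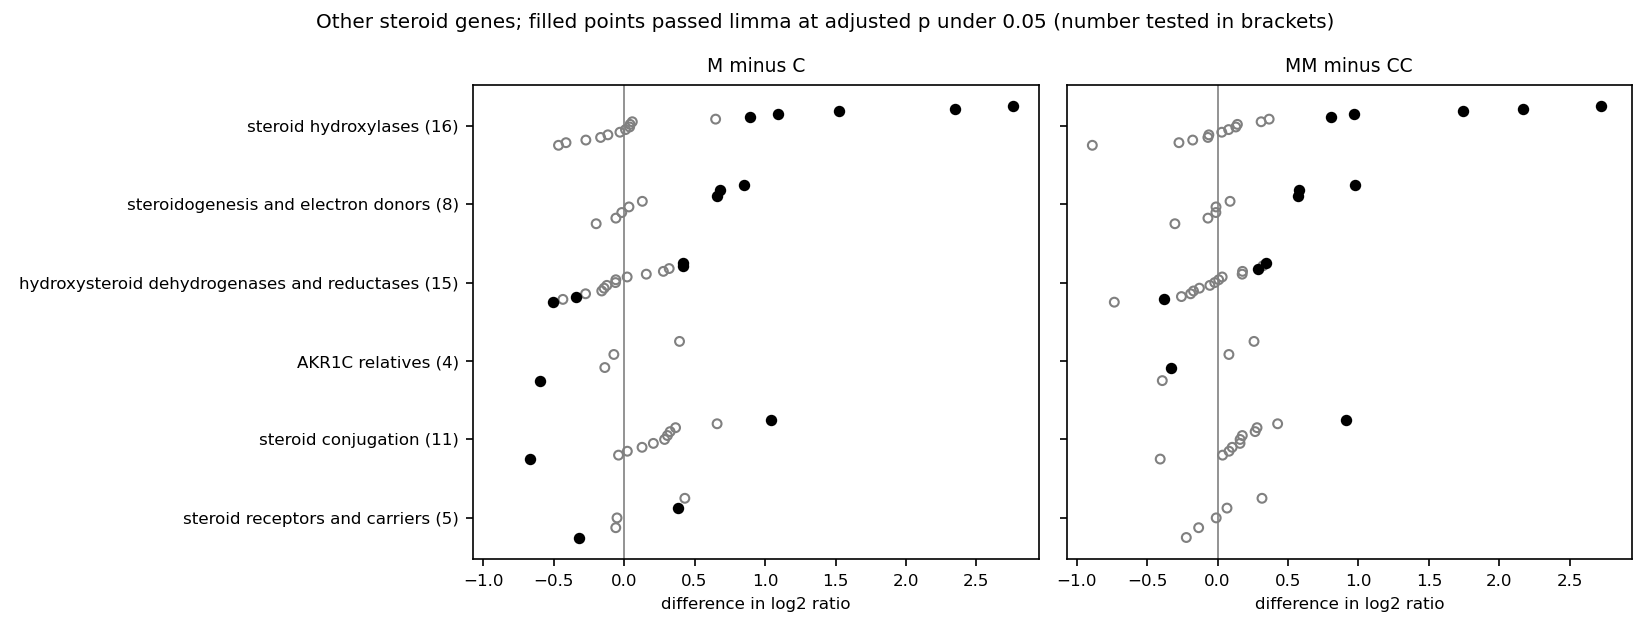
Difference in log2 ratio of the 59 other steroid genes by list, M minus C and MM minus CC; each point is a gene and filled points passed limma at an adjusted p under 0.05 (n = 4 arrays per group). The filled points farthest to the right are steroid hydroxylases, with 5 of 16 passed in each comparison, and the dehydrogenases and reductases lie on both sides of 0.

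None of the 59 genes passed in a cross-fostering comparison or in the interaction. The genes with the smallest unadjusted p of each list did not pass either. Between CC and C they were Hsd3b7 (0.31), Cyp2c7 (-0.65), Sult2a1 (0.31), Nr3c2 (-0.16), Akr1b8 (0.18) and Por (-0.15). Between MM and M they were Cyp2c22 (-0.58), Hsd17b6 (-0.71), Akr1c15 (-0.32), Cyb5a (-0.13), Pgrmc2 (0.15) and Sult2a1 (0.19). In the interaction they included Cyp2b2 (-0.59), Akr1c19 (0.27), Hsd17b11 (0.24), Serpina6 (-0.44) and Cyb5a (-0.10).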

How the data were processed

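Liver RNA of 4 groups of 4 pooled samples was measured on 16 Agilent arrays. Per the file headers, the authors extracted the scans with Agilent Feature Extraction (version 11.0.1.1). The deposited files list, for both dyes, a median intensity per spot and one for the local background around it. They also carry the scanner software's log10 ratio, Cy5 over Cy3, background-subtracted and dye-normalized per the file headers. For 30367 probes a deposited series table holds log2 values. Against the ratios computed here its direction was Cy5 over Cy3, its correlation 0.996 to 0.997 and its slope 0.997 to 1.01 per array, with array medians of -0.049 to -0.037, and its normalization is not given in the sources used here.

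Each array had 62976 spots, 4259 of them controls. The plan named spot signals without a statistic, and the median signals were used. Normexp (offset 50) corrected the background, and ratios were normalized by loess within arrays, with no weight on control spots. Arrays were not scaled to each other. Spots flagged as outliers were dropped after the loess step, and the other spots of a probe were averaged. The 13262 probes kept had Cy5 well above background on 3 or more arrays of any group. RefSeq accessions were matched to a table of the GRCr8 assembly, which named 18005 probes and left 12362 under their own identifiers, and each gene was read from its brightest kept probe. That left 12072 genes, 7895 with a symbol. In R 4.3.3, limma 3.58.1 fitted group means over the 16 arrays (eBayes, two-sided, Benjamini-Hochberg over all genes tested, adjusted p under 0.05), with the packages data.table (version 1.17.8) and jsonlite (version 2.0.0) for reading. In single channels the normexp signals were quantile-normalized between arrays. The fit was tested on simulated data. Precision is limited by the number of arrays.

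The members and the gene lists were chosen with earlier results of these data known. The names in the text are all members, up to 4 called genes of each list with the smallest p (1 where none was called) and the 3 genes that correlate best with each member, a few of which are not reported here. Cyp3a23-3a1, Cyp1a2, Cyp2a1 and Ugt2b35 were named after their values were seen, and Akr1e2, Akr1c12 and Akr1c15 as tested genes of the aldo-keto reductase cluster. Alternatives were single channels, the scanner's log ratio, the series table, offset, scaling, filters, probe choice, array rows, the replicate block and leaving out arrays. The replicate numbers that CC and MM share were treated as names.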

Additional observations from a re-analysis of the deposited data

Results flagged for a closer look

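Of 40 groups of 4 arrays checked (10 probes in 4 groups), 3 held an array far from the other 3 by Dixon's ratio of the gap to the group's range, and chance gives about 1 in 20. Akr1c1 was at a log2 ratio of 1.66 on CC 4, with the nearest other CC array at 0.55. The second, dimmer probe for Srd5a1 was at 1.09 on CC 1, with the nearest at 1.83. Hsd17b2 was at 5.02 on CC 1, with the nearest at 5.59. All 3 were in the CC group, and CC 1 is 1 of the arrays that stood apart in skeletal muscle markers. The part of those tissues in these values was not tested.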

How the results depend on the processing

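Across the alternatives no call changed direction. Of 765 values of the members under alternative settings 688 kept their sign and their side of the threshold, 17 lost a call, 5 gained one and 55 changed sign without a call in either setting. Akr1c14 between MM and CC passed in all 22 alternatives (log2 0.54 to 0.70). In Cy5 alone 272 genes passed between M and C (200 higher, 72 lower) and 310 between MM and CC (257 higher, 53 lower), against 1002 higher and 1440 lower between M and C and 952 higher and 1481 lower between MM and CC in the ratio. The scanner's log ratio gave 4024 and 3957 genes, and the values of the series table gave 1122 higher and 1203 lower between M and C and 1123 higher and 1037 lower between MM and CC. With no filter on dim probes 1 member passed between MM and CC, as with only probes well above background on all 16 arrays and without CC 1 and CC 2 (1484 genes in all), an alternative chosen after seeing the data. Within array row 1 the members passing between M and C were 0, with 846 genes in all, 593 genes between MM and CC, 24 between CC and C, 1 between MM and M and 19 in the interaction. Within row 2 it was 1 member and 694 genes between M and C, and 1216 genes between MM and CC. These fits hold 2 arrays per group. Leaving out each array in turn gave 2 to 3 members and 1893 to 2137 genes between M and C, 1 to 3 members and 1775 to 2241 genes between MM and CC, and 0 in the other comparisons. With the replicate block in the paired fit of MM and CC 2 members and 2004 genes passed, against 1 member and 1571 genes on the same arrays without the block, chosen after seeing the data. Same-numbered arrays deviated together at r = 0.34, 0.05, 0.19 and 0.11, and CC 4 correlated best with MM 3 (0.28), so the numbers were not taken as pairs. The numbers of C and M are not shared with another group. The cause of these shifts was not tested. Some of the settings also leave fewer arrays or genes. Signal over background limits Akr1c1 and Hsd3b5, and Akr1c13 was also dim.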

Other observations

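Several steroid hydroxylases and glucuronosyltransferases not named above passed in Cy5 alone while their ratio did not, with values chosen after they were seen. Cyp1a2, a hydroxylase of estradiol, was higher in M than in C by 2.24 on the log2 scale in Cy5 alone (limma adjusted p = 5.66e-08) and in MM than in CC by 2.48 (limma adjusted p = 1.22e-08). Its ratio differed by -0.11 and 0.13, and the reference signal of its probe was higher on the mixture slide by 2.42 and 2.35. Cyp2a1, a testosterone hydroxylase, gave 0.97 and 1.09 in Cy5 alone, 0.06 and 0.31 in the ratio and 0.94 and 0.75 in Cy3. Ugt2b35 gave 0.73 and 0.79 in Cy5 alone, 0.13 and 0.27 in the ratio and 0.65 and 0.51 in Cy3. For these genes, as for the member Cyp17a1, Cy3 moved with Cy5 between the slides. The member Hsd17b2 was also higher in both channels on the mixture slide, with a call in Cy3 only. Which of the measures follows the RNA was not tested.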
